A study of Mus musculus with 12 samples.

Results

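The comparison described here is the response of mouse embryonic stem (ES) cells to the BET inhibitor JQ1 in 2iL medium minus the response of GSK3 knockout ES cells in serum/LIF. It takes the log2 ratio of JQ1 over DMSO in 2iL and subtracts from it the log2 ratio of JQ1 over DMSO in the knockout, gene by gene. It rests on 8 of the 12 libraries of the series, in 4 groups of 2, chosen by their labels. The first group is ES cells in 2iL given 100 nM JQ1 for 60 h, and the second is the same cells in 2iL given the solvent DMSO. The third is GSK3 knockout ES cells in serum/LIF (SL) given 100 nM JQ1 for 60 h, and the fourth is the knockout cells given DMSO. No library is shared between the sides. The labels give no line, clone or allele for the knockout, and they do not say whether the replicates of a group came from separate cultures. The spread behind each p-value is that between the libraries, and may be technical. The 2iL medium was free of serum and held LIF, 1 µM of the MEK inhibitor PD0325901 and 3 µM of an agent whose name the label leaves out. The serum/LIF cells had been kept on mitomycin-treated mouse fibroblasts and were then moved to gelatin. Genotype, medium, the MEK inhibitor and feeder history therefore differ together between the sides and cannot be told apart.

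JQ1 displaces the bromodomain proteins of the BET family from acetylated histones, where they recruit the machinery that releases paused RNA polymerase. GSK3 is a kinase that tags beta-catenin, through which Wnt signals act, for destruction, and its inhibition relieves repression of pluripotency genes by Tcf7l1. A 2i medium combines inhibitors of MEK and of GSK3 and holds mouse ES cells in the naive state, whereas GSK3 knockout cells in serum/LIF lose the kinase but keep MEK signalling. The comparison asks for which genes the effect of JQ1 was not the same in these settings. Below, "higher" means that the JQ1 response was higher in 2iL than in the knockout, and "lower" that it was lower. Levels of genes are CPM, counts scaled to a common library size with TMM normalization factors. Summed levels of markers are CPM of the total counts, without these factors. Differences and responses are log2 values with their standard error, and a gene passed when edgeR's quasi-likelihood test gave a p under 0.05 after Benjamini-Hochberg adjustment over all genes tested.

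Totals ran from 17869865 to 29882439 expected counts over the 8 libraries. Gsk3a stood at 129.9 and 118 CPM with JQ1 and 107 and 89.3 CPM with DMSO in 2iL, against 32.9 and 28.2 CPM with JQ1 and 24.7 and 23.4 CPM with DMSO in the knockout. Gsk3b stood at 156 and 158 CPM with JQ1 and 93.7 and 105 CPM with DMSO in 2iL, against 61.1 and 58.0 CPM with JQ1 and 51.2 and 42.5 CPM with DMSO in the knockout. Both were lower in every knockout library than in any 2iL library but neither was at 0. These counts sum over all exons and cannot tell a deleted exon from the rest. All 7 ES cell markers were present in each of the 8 libraries, with a summed level between 2990 and 4320 CPM. The 12 fibroblast markers summed to 21.8 to 25.5 CPM with JQ1 and 31.4 to 38.2 CPM with DMSO in 2iL, against 169 to 223 CPM with JQ1 and 334 to 496 CPM with DMSO in the knockout. In 2iL 4 to 6 of them were at 0, Dcn, Prrx1, Postn and Lum among them in every library. In the knockout at most 1 was at 0. This sum moved with JQ1 in the knockout, and its part in the differences was not tested. In bulk libraries fewer cells of a type and less RNA per cell cannot be told apart. Mitochondrially encoded genes took 4.67% and 4.82% of counts with JQ1 and 6.75% and 6.41% with DMSO in 2iL, against 7.20% and 8.43% with JQ1 and 10.7% and 11.2% with DMSO in the knockout.

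The responses had much in common. Of 16987 genes tested, 4834 (28.5%) changed with JQ1 in 2iL, 1896 upward (11.2%) and 2938 downward (17.3%). In the knockout 5799 (34.1%) changed, 2485 upward (14.6%) and 3314 downward (19.5%). Of the 2291 genes that passed on both sides, 2140 (93.4%) moved in the same direction, 1487 downward and 653 upward, and for 1967 of these the difference between the sides did not pass. Over the 11215 genes with at least 5 CPM in a group, the responses had a Pearson correlation of 0.622 and a Spearman correlation of 0.357 across genes, which are not independent replicates. Lefty2, a secreted inhibitor of Nodal, is an example of a shared loss, at 0.171 and 0.862 CPM with JQ1 and 38.9 and 105 CPM with DMSO in 2iL, against 0.206 and 1.06 CPM with JQ1 and 88.5 and 111 CPM with DMSO in the knockout. Every JQ1 library lay far below every DMSO library on its own side, and the difference of the responses was 0.52 ± 1.16 (adjusted p = 0.802). H1f0, a linker histone, is an example of a shared gain, with responses of 1.32 ± 0.17 in 2iL and 1.55 ± 0.17 in the knockout and a difference of -0.23 ± 0.24 (adjusted p = 0.547).

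The difference itself passed for 2055 genes (12.1%), 1137 higher (6.69%) and 918 lower (5.4%), and 5177 genes had an unadjusted p under 0.05. It was at least 1 on the log2 scale in 618 of the higher genes and at most -1 in 429 of the lower ones. The median difference over all genes tested was -0.06. The balance of directions turned with no filter on low counts, to 1505 higher and 1648 lower, and with only the 8 libraries in the fit, to 1560 higher and 1610 lower. Without 2iL DMSO replicate 2 it was 1559 higher and 1561 lower. Of the higher genes 485 fell in the knockout and did not pass in 2iL, 382 rose in 2iL and did not pass in the knockout, 116 rose in 2iL and fell in the knockout, 81 fell on both sides, 8 rose on both and 65 passed on neither. Of the lower genes 437 rose in the knockout and did not pass in 2iL, 313 fell in 2iL and did not pass in the knockout, 35 fell in 2iL and rose in the knockout, 67 fell on both sides, 17 rose on both and 49 passed on neither. The count depended on single libraries. It was 429 and 638 without JQ1 replicate 1 or 2 in 2iL, 604 and 3120 without DMSO replicate 1 or 2 in 2iL, 493 and 473 without JQ1 replicate 1 or 2 in the knockout, and 311 and 1248 without DMSO replicate 1 or 2 in the knockout. In all 8 of these fits 267 genes passed, 180 higher and 87 lower.

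**Figure D1:**
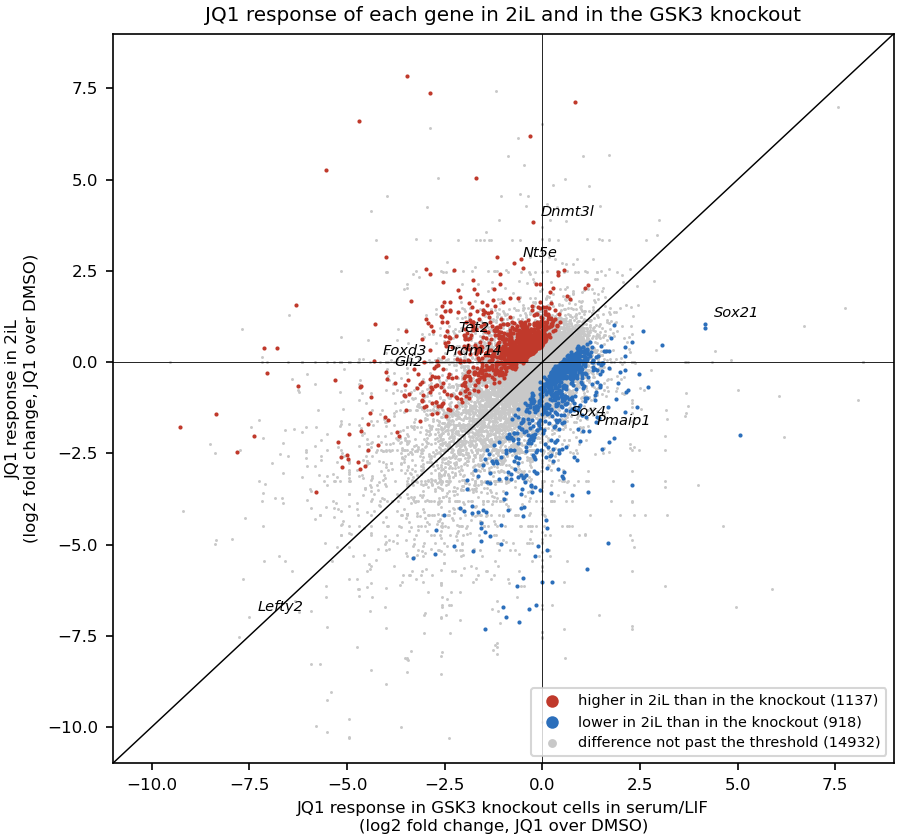
JQ1 response (log2 fold change, JQ1 over DMSO) of each of 16987 genes in 2iL (vertical axis) against the response in GSK3 knockout cells in serum/LIF (horizontal axis); the diagonal marks equal responses. The 1137 red genes lie above the diagonal and the 918 blue genes below it, and Lefty2 lies close to it far down on both axes.

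The difference moved with transcript length. Genes with at least 5 CPM and a known length were put into 10 bins by the length of their longest annotated transcript. In the bin of shortest transcripts, with a median of 1046 bases, the median difference was -0.46, with 27 genes higher and 174 lower. In the bin of longest transcripts, with a median of 8390 bases, it was 0.54, with 359 genes higher and 15 lower. The Spearman correlation of length with the difference was 0.464 over 11206 genes, with 0.292 for the response in 2iL and -0.271 for that in the knockout. Single libraries differed in this respect also within a group. The change of log2 CPM per doubling of length was 0.025 and 0.0074 with JQ1 and -0.16 and -0.030 with DMSO in 2iL, against -0.10 and -0.14 with JQ1 and 0.070 and -0.023 with DMSO in the knockout. A second fit carried an offset that takes the trend with length out of each library, an alternative chosen after the data were seen. With it 1610 genes passed (9.48%), 796 higher (4.69%) and 814 lower (4.79%), and the correlation of the difference with length was 0.0364. Passing in both fits with the same sign were 1222 genes, 59.5% of the genes of the first fit and 75.9% of those of the second, and 0 genes passed with opposite signs. A set of 260 genes passed in the first fit, with each library left out and with the length offset, 174 higher and 86 lower. The part of RNA length or of RNA quality in the differences was not tested further. Unless lost calls are given beside it, each gene named below as higher or lower belongs to these 260.

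**Figure D2:**
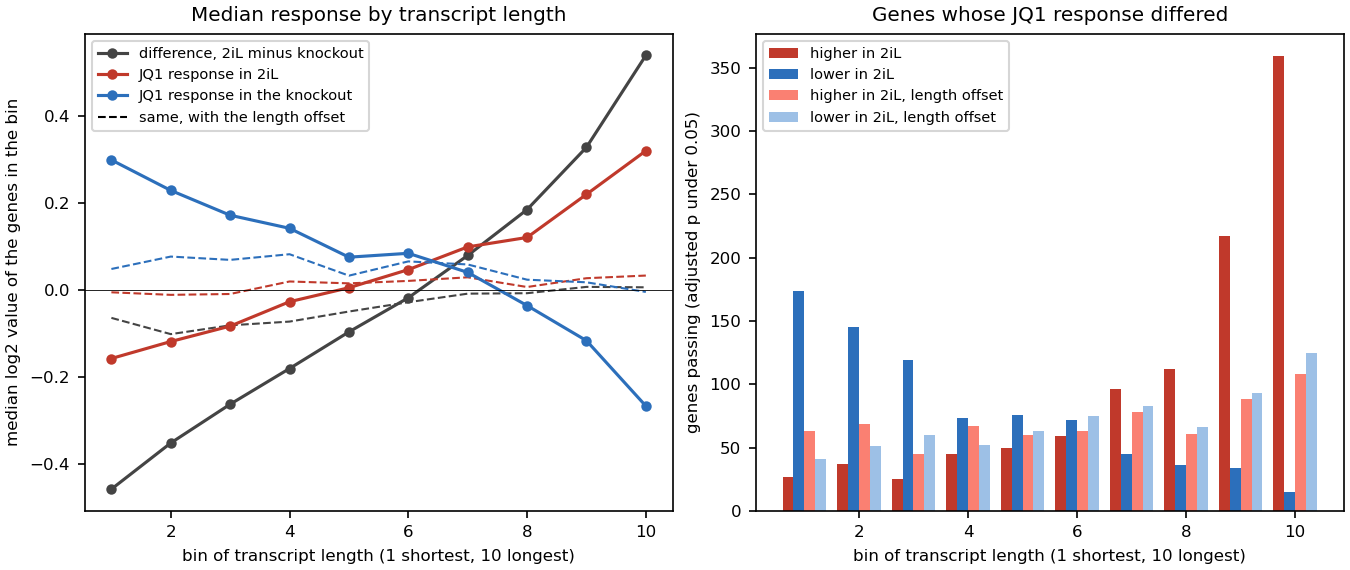
Left, median log2 difference (2iL minus knockout) and median JQ1 response on each side in 10 bins of transcript length, without (solid) and with (dashed) the length offset; right, the number of genes passing in each bin. The median difference climbs to 0.54 in the bin of longest transcripts, against -0.46 in the bin of shortest, and the dashed line of the difference stays near 0.

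Among the genes of DNA methylation, Dnmt3l, Tet1 and Tet2 had a higher JQ1 response in 2iL than in the knockout. Dnmt3l, the cofactor without catalytic activity that stimulates the de novo methyltransferases (ENSMUSG00000000730.13, chromosome 10, 78041947 to 78063622, plus strand, GRCm38 here and below), stood at 14.5 and 6.86 CPM with JQ1 and 1.06 and 0.415 CPM with DMSO in 2iL, against 190.0 and 183 CPM with JQ1 and 218 and 225 CPM with DMSO in the knockout. It was low in 2iL, where both JQ1 libraries lay above both DMSO libraries, and high in all 4 knockout libraries. Its response was 3.83 ± 0.40 (adjusted p = 3.51e-05) in 2iL and -0.25 ± 0.23 (adjusted p = 0.432) in the knockout, and the difference was 4.08 ± 0.47 (adjusted p = 0.00074). Dnmt3l overlaps Aire on the opposite strand, and since the strand setting of the counting is not given, reads of the shared stretch cannot be told apart.

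The Tet enzymes oxidize 5-methylcytosine. Tet2 (ENSMUSG00000040943.12, chromosome 3, 133463679 to 133545139, minus strand) had 264 and 226 CPM with JQ1 and 127 and 181 CPM with DMSO in 2iL, against 38.3 and 39.6 CPM with JQ1 and 224 and 177 CPM with DMSO in the knockout. The JQ1 libraries were the highest of the 2iL libraries and the lowest of the knockout libraries, with no overlap on either side. The responses were 0.67 ± 0.22 (adjusted p = 0.0402) in 2iL and -2.37 ± 0.24 (adjusted p = 1.96e-05) in the knockout, and the difference was 3.03 ± 0.32 (adjusted p = 0.000474). Tet1 (ENSMUSG00000047146.16, chromosome 10, 62804570 to 62908996, minus strand) had 366 and 358 CPM with JQ1 and 265 and 429 CPM with DMSO in 2iL, against 56.5 and 70.1 CPM with JQ1 and 247 and 224 CPM with DMSO in the knockout. In 2iL its JQ1 libraries lay between the DMSO libraries, and in the knockout both lay far below them. The difference was 1.96 ± 0.31 (adjusted p = 0.00386). With the length offset it was 1.18 ± 0.22 (adjusted p = 0.00861) for Tet1, a transcript of the longer kind, and 2.46 ± 0.23 (adjusted p = 0.000122) for Tet2. The other 5 members of the list did not pass. Dnmt3b, a de novo methyltransferase, rose on both sides, by 1.08 in 2iL and 0.70 in the knockout. Dnmt3a fell on both, with responses of -1.04 and -0.84. Dnmt1, the maintenance enzyme, had a difference of 0.42 ± 0.16 (adjusted p = 0.102), Uhrf1, its partner at replicated DNA, 0.16 ± 0.14 (adjusted p = 0.469), and Tet3 0.09 ± 0.30 (adjusted p = 0.88). In all, 3 of 8 genes were higher and 0 lower, in both fits, with a median of 0.40 against -0.06 over all genes tested. The shares over all genes were 6.69% higher and 5.4% lower, or 4.69% and 4.79% with the length offset.

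**Figure D3:**
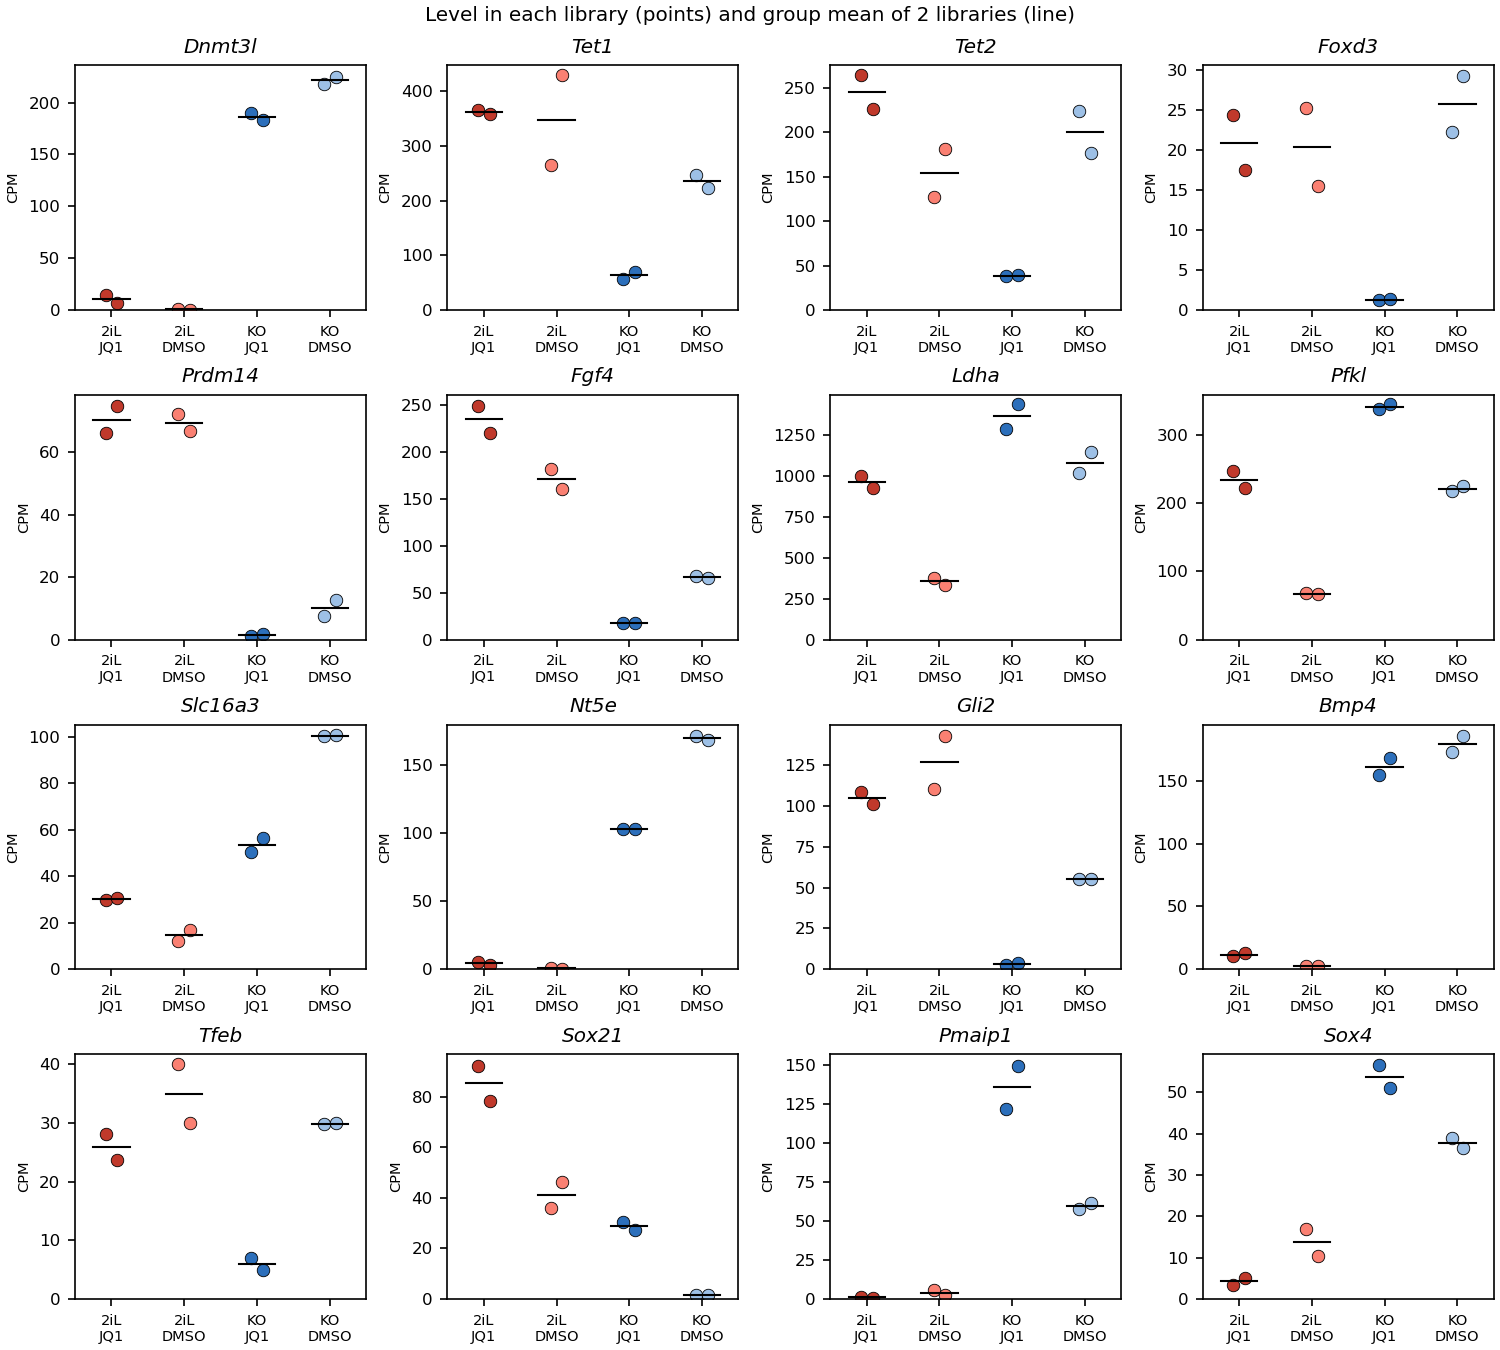
Level (CPM) of 16 genes in each of the 8 libraries (points) with the mean of each group of 2 (line); in each panel 2iL stands left of the knockout (KO) and JQ1 left of DMSO. Tet1, Foxd3, Prdm14, Fgf4 and Gli2 fell with JQ1 past the threshold in the knockout and not in 2iL, Dnmt3l, Bmp4 and Nt5e rose from a low level in 2iL, and Pmaip1 and Sox4 moved in opposite directions.

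Of 16 genes of the naive state 2 fell and 3 rose with JQ1 in 2iL, against 7 that fell and 1 that rose in the knockout. The difference was higher for 6 of them and lower for 0, with a median difference of 0.86. With each library left out 5 or 6 were higher, and with the length offset 7 were, with a median of 0.69. Over all genes tested 6.69% were higher, or 4.69% with the length offset. The core factors Nanog, Klf4 and Esrrb were not among those that passed. Prdm14, a repressor of differentiation and of DNA methylation genes (ENSMUSG00000042414.7, chromosome 1, 13113457 to 13127163, minus strand), had 66.1 and 74.7 CPM with JQ1 and 72.2 and 66.7 CPM with DMSO in 2iL, against 1.34 and 1.84 CPM with JQ1 and 7.62 and 12.6 CPM with DMSO in the knockout. The 2iL groups overlapped, while both knockout JQ1 libraries lay below both DMSO libraries. Its response was 0.02 ± 0.25 (adjusted p = 0.975) in 2iL and -2.70 ± 0.34 (adjusted p = 0.000115) in the knockout, with a difference of 2.72 ± 0.43 (adjusted p = 0.0035). Fgf4, the growth factor that feeds MEK-ERK signalling in ES cells (ENSMUSG00000050917.5, chromosome 7, 144847367 to 144865243, plus strand), had 249 and 221 CPM with JQ1 and 181 and 161 CPM with DMSO in 2iL, against 17.6 and 18.2 CPM with JQ1 and 67.8 and 66.1 CPM with DMSO in the knockout. Its JQ1 libraries were above the DMSO libraries in 2iL and below them in the knockout, although the response in 2iL did not pass at 0.46 ± 0.18 (adjusted p = 0.0723). In the knockout it was -1.90 ± 0.19 (adjusted p = 2.26e-05), and the difference was 2.36 ± 0.26 (adjusted p = 0.000624).

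Nr5a2, a nuclear receptor of the naive network, had 118 and 117 CPM with JQ1 and 92.0 and 108 CPM with DMSO in 2iL, against 40.9 and 44.6 CPM with JQ1 and 85.0 and 83.6 CPM with DMSO in the knockout, with a difference of 1.21 ± 0.23 (adjusted p = 0.00868). Klf5, a Krüppel-like factor, had 185 and 158 CPM with JQ1 and 139.7 and 135 CPM with DMSO in 2iL, against 177 and 172 CPM with JQ1 and 309 and 293 CPM with DMSO in the knockout, with a difference of 1.11 ± 0.17 (adjusted p = 0.00352). For both genes the fall with JQ1 was seen in the knockout, where the groups did not overlap. Tbx3, a T-box factor of the naive network, had 358 and 309 CPM with JQ1 and 224 and 197 CPM with DMSO in 2iL. It rose there by 0.66 ± 0.11 (adjusted p = 0.000941), and its response in the knockout did not pass, at -0.21 ± 0.11 (adjusted p = 0.155). Its difference was 0.87 ± 0.16 (adjusted p = 0.00721). Tfcp2l1, a factor of the same network, passed at 1.02 ± 0.23 (adjusted p = 0.0174), but not with the length offset (0.43 ± 0.18, adjusted p = 0.147) and not without any 1 library other than 2iL DMSO replicate 2, 2iL JQ1 replicate 2 or knockout DMSO replicate 2 (adjusted p between 0.054 and 0.0876). Nanog, at 908 and 969 CPM with JQ1 and 846 and 756 CPM with DMSO in 2iL, against 357 and 345 CPM with JQ1 and 339.7 and 372 CPM with DMSO in the knockout, had a difference of 0.25 ± 0.20 (adjusted p = 0.421), Klf4 of 0.27 ± 0.19 (adjusted p = 0.37) and Esrrb of 0.20 ± 0.29 (adjusted p = 0.683). Tcl1, which binds the kinase Akt, fell on both sides, with responses of -1.35 in 2iL and -1.65 in the knockout. Dppa3, a maternal factor that guards methylation, had 14.1 and 17.9 CPM with JQ1 and 3.07 and 4.79 CPM with DMSO in 2iL, against 0.137 and 0.0557 CPM with JQ1 and 0.0508 and 0.503 CPM with DMSO in the knockout. It rose in 2iL by 2.03 ± 0.39 (adjusted p = 0.0024) and held at most 9 counts in each knockout library, and its difference did not pass (adjusted p = 0.1). Nr0b1, which did not pass at 0.88 ± 0.33 (adjusted p = 0.0985), passed with the length offset (1.12 ± 0.29, adjusted p = 0.0343).

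General pluripotency factors did not differ past the threshold, 0 of 9 beside 12.1% over all genes tested, with a median of 0.25. Pou5f1 had a difference of -0.19 ± 0.24 (adjusted p = 0.633) and Sox2 of -0.39 ± 0.32 (adjusted p = 0.431). The length offset brought 2 of them over the threshold, the Nodal coreceptor Tdgf1 (1.20) and Utf1 (0.85). Tdgf1 fell on both sides, with responses of -0.73 in 2iL and -1.71 in the knockout. Without 2iL DMSO replicate 2 or knockout JQ1 replicate 2, 1 of the 9 was higher in each fit.

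Genes of the formative and primed states, which ES cells express as they leave the naive state, were split. Of 11 genes 2 were higher and 3 lower, with a median of -0.06, beside 6.69% higher and 5.4% lower over all genes tested. Foxd3, a forkhead factor that silences naive enhancers on this path (ENSMUSG00000067261.4, chromosome 4, 99656299 to 99658622, plus strand), gave one of the largest differences. It stood at 24.3 and 17.5 CPM with JQ1 and 25.3 and 15.5 CPM with DMSO in 2iL, against 1.24 and 1.39 CPM with JQ1 and 22.2 and 29.2 CPM with DMSO in the knockout. The 2iL groups overlapped, and both knockout JQ1 libraries were far below every other library. The responses were 0.03 ± 0.30 (adjusted p = 0.963) in 2iL and -4.30 ± 0.39 (adjusted p = 1.13e-05) in the knockout, and the difference was 4.33 ± 0.50 (adjusted p = 0.00074). Otx2, which drives the exit from the naive state, had 2.33 and 2.46 CPM with JQ1 and 4.59 and 5.90 CPM with DMSO in 2iL, against 9.96 and 11.9 CPM with JQ1 and 5.28 and 7.10 CPM with DMSO in the knockout. It fell in 2iL (-1.12 ± 0.37, adjusted p = 0.0372), did not pass in the knockout (0.81 ± 0.32, adjusted p = 0.0652) and was lower at -1.94 ± 0.49 (adjusted p = 0.0277). Its call was lost without any 1 library other than 2iL DMSO replicate 1, 2iL DMSO replicate 2 or knockout DMSO replicate 2 (adjusted p between 0.0605 and 0.116). Sall2 was lower at -1.75 ± 0.34 (adjusted p = 0.0113), a call lost without knockout JQ1 replicate 1 (-1.40, adjusted p = 0.0582). Tead2 was lower at -0.84 ± 0.18 (adjusted p = 0.0141), a call lost without 2iL JQ1 replicate 1, knockout DMSO replicate 1 or knockout JQ1 replicate 1 (adjusted p between 0.0582 and 0.0764). Without knockout JQ1 replicate 1 0 genes of the list were lower. Cdh2, the N-cadherin of primed cells, rose on both sides, and its difference of 0.92 ± 0.28 (adjusted p = 0.0466) was lost without any 1 of the 8 libraries (adjusted p between 0.0508 and 0.169) and with the length offset (0.76 ± 0.25, adjusted p = 0.0735).

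Many glycolytic genes rose with JQ1, in 2iL and in the knockout. Of 19 genes 14 rose and 1 fell in 2iL, against 10 that rose and 2 that fell in the knockout, with a median response of 0.70 in 2iL and 0.34 in the knockout. Over all genes tested 11.2% rose in 2iL and 14.6% in the knockout. With the length offset 15 of the list rose and 2 fell in 2iL, and 9 rose and 2 fell in the knockout. Over all 16987 genes tested 1749 rose in 2iL with it and 2529 in the knockout. In the first fit the difference was higher for 6 and lower for 1, with a median of 0.34, beside 6.69% higher and 5.4% lower over all genes tested. With the length offset it was higher for 8 and lower for 1, with a median of 0.40, beside 4.69% and 4.79%. Left-out libraries brought the higher count to between 3 and 6, with 3 without 2iL DMSO replicate 1, 2iL JQ1 replicate 1, knockout DMSO replicate 1 or knockout JQ1 replicate 1, 4 without knockout JQ1 replicate 2 and 5 or 6 without the others. Ldha, which turns pyruvate into lactate (ENSMUSG00000063229.15, chromosome 7, 46841475 to 46855627, plus strand), had 1004 and 927 CPM with JQ1 and 377 and 336 CPM with DMSO in 2iL, against 1292 and 1443 CPM with JQ1 and 1021 and 1146 CPM with DMSO in the knockout. All 4 knockout libraries lay above the 2iL libraries, and the JQ1 libraries lay above their DMSO libraries on both sides, though less far in the knockout. The response was 1.44 ± 0.12 (adjusted p = 8.82e-06) in 2iL and 0.34 ± 0.12 (adjusted p = 0.0463) in the knockout, and the difference was 1.10 ± 0.17 (adjusted p = 0.00324). Pfkl, the liver type of phosphofructokinase, had 247 and 222 CPM with JQ1 and 67.8 and 66.3 CPM with DMSO in 2iL, against 338 and 345 CPM with JQ1 and 218 and 226 CPM with DMSO in the knockout. It rose on both sides, by 1.81 in 2iL and 0.62 in the knockout, with a difference of 1.18 ± 0.14 (adjusted p = 0.000864).

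Slc16a3, the exporter of lactate (ENSMUSG00000025161.16, chromosome 11, 120948480 to 120960868, plus strand), moved in opposite directions. It had 29.7 and 30.7 CPM with JQ1 and 12.2 and 17.0 CPM with DMSO in 2iL, against 50.3 and 56.6 CPM with JQ1 and 100.2 and 101 CPM with DMSO in the knockout, so that the JQ1 libraries were the higher ones in 2iL and the lower ones in the knockout. The responses were 1.05 ± 0.14 (adjusted p = 0.000189) and -0.91 ± 0.13 (adjusted p = 0.000264), and the difference was 1.97 ± 0.19 (adjusted p = 0.000279). The glucose transporter Slc2a1 was higher at 1.23 ± 0.25 (adjusted p = 0.0124), a call lost without any 1 library other than 2iL DMSO replicate 2, 2iL JQ1 replicate 2 or knockout DMSO replicate 2 (adjusted p between 0.0502 and 0.0554). Hk2, the hexokinase that commits glucose to glycolysis, was higher at 0.66 ± 0.13 (adjusted p = 0.0127), but not with the length offset (0.40 ± 0.12, adjusted p = 0.0557) and not without 2iL DMSO replicate 1, 2iL JQ1 replicate 1, knockout DMSO replicate 1 or knockout JQ1 replicate 1 (adjusted p between 0.0547 and 0.0753). Pfkp was higher at 0.94 ± 0.25 (adjusted p = 0.0358), but not with the length offset (0.39 ± 0.26, adjusted p = 0.368) and not without any 1 library other than 2iL DMSO replicate 2 (adjusted p between 0.076 and 0.126). Hk1, the hexokinase of most tissues, was the 1 gene lower (-0.56 ± 0.17, adjusted p = 0.0448), and its call was lost without any 1 of the 8 libraries (adjusted p between 0.06 and 0.176). Other steps rose on both sides without a difference that passed. Gapdh rose by 0.67 in 2iL and 0.76 in the knockout (difference -0.09 ± 0.15, adjusted p = 0.703), Aldoa by 0.67 and 0.65, and Gpi1 by 0.49 and 0.59. Pgk1 and Pkm did not pass, at 0.44 ± 0.15 (adjusted p = 0.0645) and 0.44 ± 0.14 (adjusted p = 0.0565), and did with the length offset (0.68 and 0.59), as did Eno1 (0.48) and Tpi1 (0.54).

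The promoters of the lactate genes are shown because the difference was clear for both, with the motif ACGTG, the core of the hypoxia response element, or its reverse complement CACGT in capitals. Windows run from 250 bases before to 50 after the annotated start (RefSeq, GRCm38.p6). The motif was found in 14 of 29 windows of glycolytic genes (48.3%, 18 of 19 genes matched) and in 19.6% of the 32851 windows of all genes. A match is a description of the letters and does not show that a factor binds.
Slc16a3 (chr11:120948817-120949116, plus strand): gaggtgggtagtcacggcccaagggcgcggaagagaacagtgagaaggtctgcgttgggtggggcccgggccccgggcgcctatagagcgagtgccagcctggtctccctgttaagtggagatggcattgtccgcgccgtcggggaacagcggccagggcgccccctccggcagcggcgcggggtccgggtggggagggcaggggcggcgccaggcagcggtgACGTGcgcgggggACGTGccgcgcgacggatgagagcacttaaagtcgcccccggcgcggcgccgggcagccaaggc
Ldha (chr7:46845554-46845853, plus strand): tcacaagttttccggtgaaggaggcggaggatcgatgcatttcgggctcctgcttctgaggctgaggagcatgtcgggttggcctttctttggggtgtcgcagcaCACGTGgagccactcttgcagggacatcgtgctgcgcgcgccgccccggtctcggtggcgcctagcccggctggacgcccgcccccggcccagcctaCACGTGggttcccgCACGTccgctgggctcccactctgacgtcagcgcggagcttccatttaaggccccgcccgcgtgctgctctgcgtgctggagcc
The window of Slc16a3 holds 2 matches. Ldha has 2 windows, and the one shown is the first by position that holds the motif. It holds 5 matches over both strands, of which overlapping pairs spell CACGTG.

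Genes of the hypoxia response were split, with 5 of 20 higher and 2 lower and a median of -0.16. The shares over all genes tested were 6.69% higher and 5.4% lower, or 4.69% and 4.79% with the length offset. Ddit4, an inhibitor of mTORC1 induced by stress, had 36.3 and 37.4 CPM with JQ1 and 49.2 and 39.0 CPM with DMSO in 2iL, against 24.6 and 23.2 CPM with JQ1 and 13.4 and 11.4 CPM with DMSO in the knockout. It rose in the knockout (0.95 ± 0.15, adjusted p = 0.00063), did not pass in 2iL (-0.26 ± 0.14, adjusted p = 0.198) and was lower at -1.21 ± 0.21 (adjusted p = 0.00608). P4ha1, a collagen prolyl hydroxylase, was higher at 0.78 ± 0.15 (adjusted p = 0.00999), a call lost without knockout JQ1 replicate 2 (0.75, adjusted p = 0.0504). Ak4, a mitochondrial adenylate kinase, was lower at -0.79 ± 0.16 (adjusted p = 0.0127), a call lost without knockout JQ1 replicate 1 (-0.77, adjusted p = 0.0547). The other higher genes were Ndrg1 (1.02), Pdk1 (1.14) and Ero1l (0.82), each lost without 5 or more of the 8 libraries. Kdm3a (0.56) was higher too, a call lost without any 1 of the 8 libraries. Hif1a itself rose by 0.47 in 2iL and 0.47 in the knockout. Bnip3, a mitophagy receptor, rose by 1.89 and 1.32. With the length offset 3 were higher and 2 lower, and without single libraries between 1 and 4 were higher, 4 without 2iL DMSO replicate 2, 2 without knockout DMSO replicate 2 or knockout JQ1 replicate 2 and 1 without each of the others.

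Nuclear genes of the respiratory chain lay on the other side. All 22 had a difference below 0, with a median of -0.44, and 5 were lower and 0 higher (background 5.4% lower). Over all genes tested 7876 of 16987 had a difference above 0. In the knockout 11 rose and 0 fell, and in 2iL 1 rose and 1 fell. The shares over all genes tested were 14.6% rising and 19.5% falling in the knockout, and 11.2% and 17.3% in 2iL. With the length offset 5 of the list rose and 2 fell in the knockout, and 1 rose and 0 fell in 2iL. Over all 16987 genes tested 2529 rose and 3550 fell in the knockout with it, and 1749 and 3141 in 2iL. Sdhc, a subunit of succinate dehydrogenase, had 48.9 and 53.5 CPM with JQ1 and 66.7 and 56.7 CPM with DMSO in 2iL, against 52.3 and 55.5 CPM with JQ1 and 33.8 and 35.2 CPM with DMSO in the knockout, and was lower at -0.91 ± 0.22 (adjusted p = 0.0223). Sdhb, another subunit, was lower at -0.79 ± 0.18 (adjusted p = 0.0179) and Atp5a1, of the ATP synthase, at -0.54 ± 0.13 (adjusted p = 0.0265), as were Ndufs3 (-0.75) and Uqcrfs1 (-0.68). Each of these 5 calls, that of Sdhc included, was lost with most of the single libraries left out. The list is of short transcripts, with a median length of 1832 bases. In the bin of transcripts from 1431 to 2001 bases, the median difference was -0.35, with 37 of 1120 genes higher and 145 lower. With the length offset the median was -0.19 and 3 were lower, all among these 5, beside 4.79% over all genes tested. The count was 0 without each of the other 6 libraries, 4 without knockout DMSO replicate 2 and 14 without 2iL DMSO replicate 2. Of the 13 mitochondrially encoded genes 1 was higher, mt-Nd5 (0.54 ± 0.16, adjusted p = 0.0464), a call lost without any 1 of the 8 libraries (adjusted p between 0.08 and 0.17). With the length offset 5 were. The share higher over all genes tested was 6.69%, or 4.69% with the offset.

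**Figure D4:**
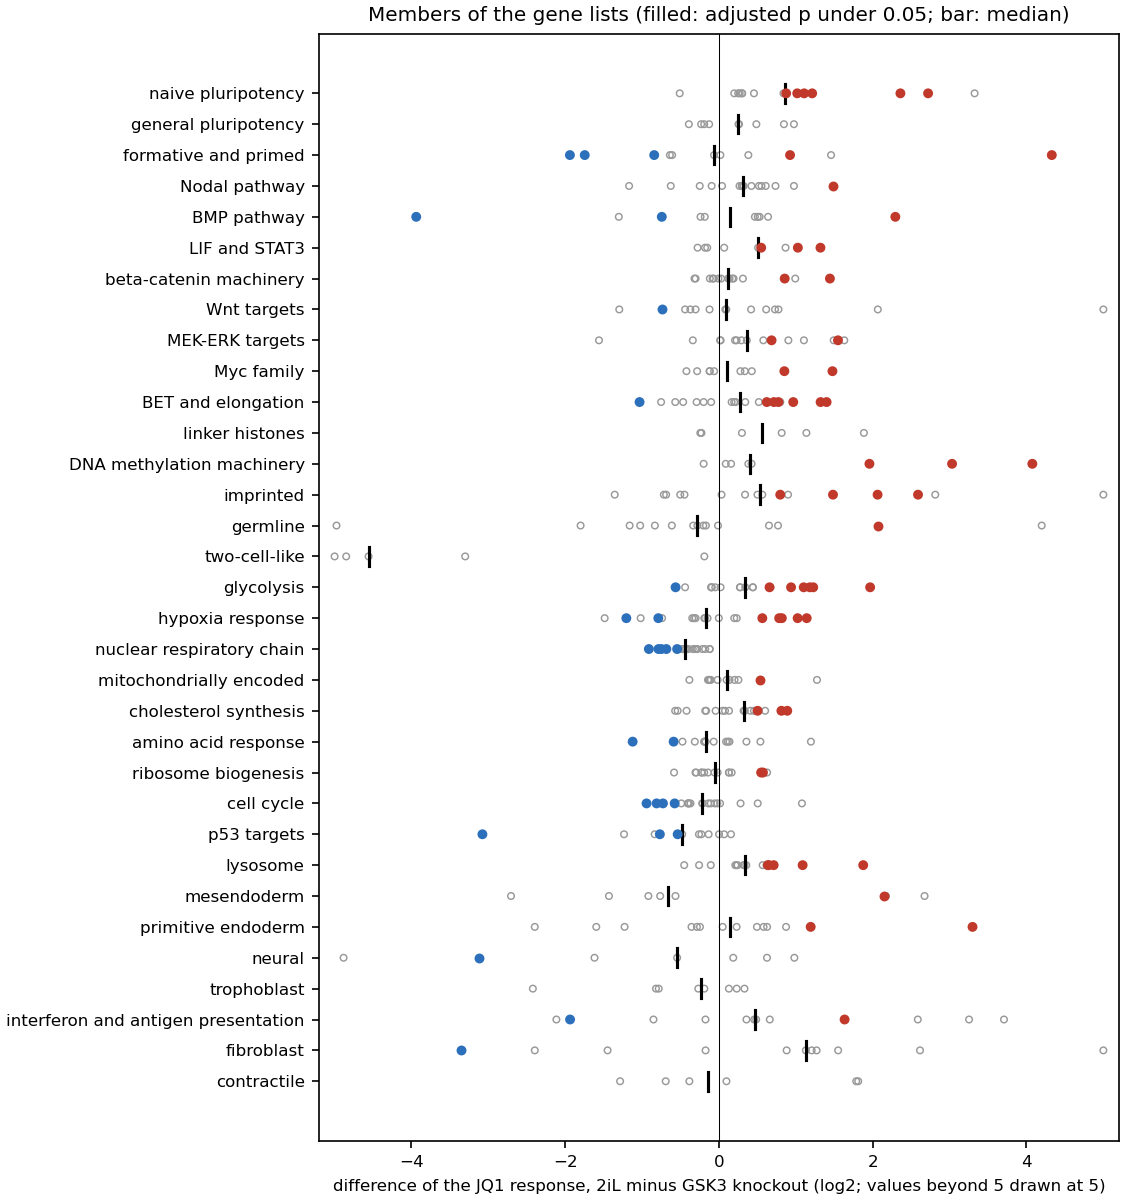
Difference of the JQ1 response (log2, 2iL minus knockout) of each tested member of the gene lists, 1 list per line, with filled points for genes passing, open points for the others and a bar at the median; 3 values beyond 5 in size are drawn at the edge. Naive genes lie mostly right of 0 and nuclear respiratory chain genes all left of it.

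Some genes moved in opposite directions. Among the genes that passed on both sides and in the difference, 116 rose in 2iL and fell in the knockout, and 35 did the reverse. With the length offset the counts were 89 and 53. Nt5e, the ecto-enzyme CD73 that makes adenosine outside the cell (ENSMUSG00000032420.8, chromosome 9, 88327197 to 88372092, plus strand), had 5.07 and 3.49 CPM with JQ1 and 0.826 and 0.461 CPM with DMSO in 2iL, against 103 and 103 CPM with JQ1 and 171 and 168 CPM with DMSO in the knockout. It was near the bottom of its range in 2iL, where JQ1 libraries were the higher ones, and high in the knockout, where they were the lower ones. The difference was 3.42 ± 0.36 (adjusted p = 0.000449). Sfmbt2, a Polycomb protein (ENSMUSG00000061186.15, chromosome 2, 10370510 to 10595253, plus strand), had 46.5 and 64.7 CPM with JQ1 and 15.1 and 20.2 CPM with DMSO in 2iL, against 24.1 and 25.7 CPM with JQ1 and 50.1 and 49.6 CPM with DMSO in the knockout, with a difference of 2.66 ± 0.33 (adjusted p = 0.00103). An intron of Sfmbt2 holds a large cluster of microRNA genes. Fzd5, a Wnt receptor, had 152 and 134 CPM with JQ1 and 70.0 and 91.2 CPM with DMSO in 2iL, against 59.0 and 61.7 CPM with JQ1 and 123 and 126 CPM with DMSO in the knockout, and a difference of 1.88 ± 0.24 (adjusted p = 0.0013). Spry2, a feedback inhibitor of receptor tyrosine kinase signalling, had 19.1 and 20.2 CPM with JQ1 and 8.21 and 10.9 CPM with DMSO in 2iL, against 67.7 and 70.9 CPM with JQ1 and 97.8 and 99.0 CPM with DMSO in the knockout, and a difference of 1.55 ± 0.19 (adjusted p = 0.000864). In each of these the groups did not overlap on either side. Cldn4, a tight junction protein, rose by 0.50 in 2iL, against -0.92 in the knockout, and Sec14l1, a lipid-binding protein of the Sec14 family, by 0.78 against -0.54. Their differences were 1.43 ± 0.15 and 1.31 ± 0.15.

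The reverse pattern was found for Pmaip1, the BH3-only protein Noxa that promotes apoptosis. It had 1.37 and 0.862 CPM with JQ1 and 5.78 and 2.30 CPM with DMSO in 2iL, against 122 and 149.7 CPM with JQ1 and 57.5 and 61.8 CPM with DMSO in the knockout. Levels in 2iL were at most a few CPM and fell further with JQ1, while the knockout JQ1 libraries lay well above the knockout DMSO libraries. The responses were -1.89 ± 0.41 (adjusted p = 0.00493) and 1.19 ± 0.24 (adjusted p = 0.0029), and the difference was -3.08 ± 0.48 (adjusted p = 0.00331). Sox4, an SRY-related factor, had 3.47 and 5.09 CPM with JQ1 and 17.0 and 10.5 CPM with DMSO in 2iL, against 56.6 and 51.1 CPM with JQ1 and 38.9 and 36.5 CPM with DMSO in the knockout, with a difference of -2.18 ± 0.29 (adjusted p = 0.00156). Sdc4, a heparan sulfate proteoglycan of the cell surface, had 33.3 and 31.7 CPM with JQ1 and 55.3 and 68.0 CPM with DMSO in 2iL, against 243 and 237 CPM with JQ1 and 160.2 and 159 CPM with DMSO in the knockout, with a difference of -1.52 ± 0.16 (adjusted p = 0.000449). On both sides the JQ1 and DMSO libraries of Sox4 and Sdc4 did not overlap. Smyd2, a lysine methyltransferase, had responses of -0.89 in 2iL and 0.51 in the knockout. Efna2, an ephrin, had responses of -1.04 in 2iL and 0.76 in the knockout, Ism2, a secreted isthmin, -1.03 and 1.35, Mobp, a myelin protein, -0.68 and 1.49, and Rtn1, a reticulon, -1.83 and 0.91. Rtn1 was low throughout, between 1.08 and 5.39 CPM.

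**Figure D5:**
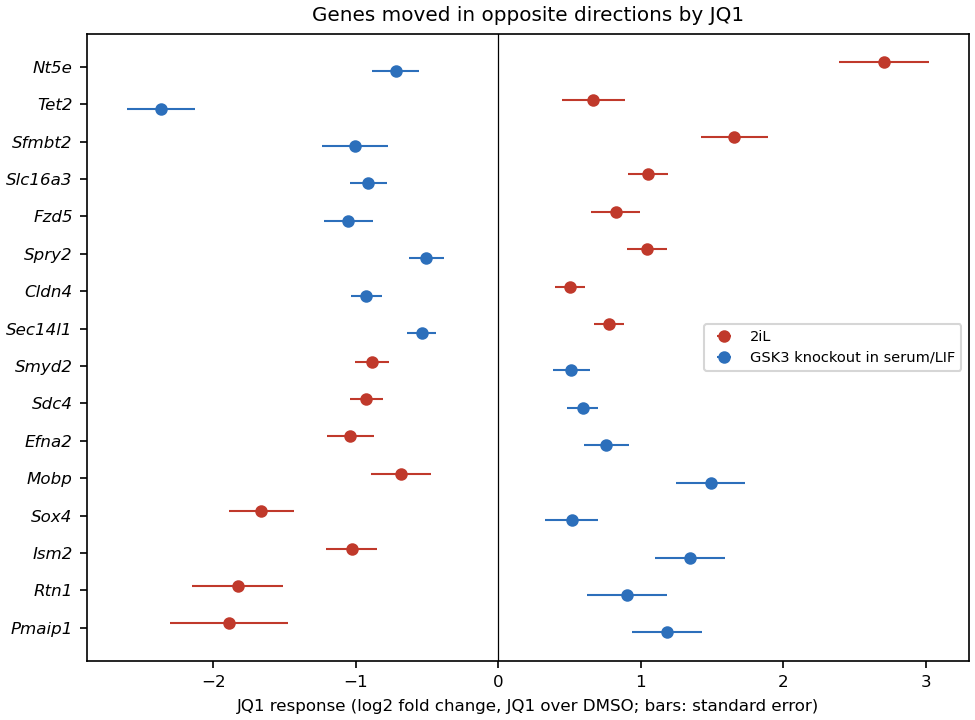
JQ1 response (log2 fold change, JQ1 over DMSO, with its standard error) of 16 genes that passed with opposite signs, in 2iL (red) and in GSK3 knockout cells in serum/LIF (blue). The 8 genes on top rose in 2iL and fell in the knockout, and the 8 below did the reverse.

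Most of the largest differences came with a fall on 1 side. Gli2, an effector of Hedgehog signalling (ENSMUSG00000048402.14, chromosome 1, 118834132 to 119053619, minus strand), had 108 and 101 CPM with JQ1 and 111 and 143 CPM with DMSO in 2iL, against 2.92 and 4.18 CPM with JQ1 and 55.6 and 55.0 CPM with DMSO in the knockout. The knockout JQ1 libraries were far below all others, the response there was -3.99 ± 0.21 (adjusted p = 2.5e-07), that in 2iL was -0.27 ± 0.16 (adjusted p = 0.237), and the difference was 3.72 ± 0.26 (adjusted p = 2.33e-05). Aire, the autoimmune regulator (ENSMUSG00000000731.15, chromosome 10, 78030022 to 78043610, minus strand), had 2.73 and 1.68 CPM with JQ1 and 0.872 and 1.52 CPM with DMSO in 2iL, against 4.36 and 5.01 CPM with JQ1 and 33.6 and 31.2 CPM with DMSO in the knockout, with a difference of 3.65 ± 0.43 (adjusted p = 0.000825). It overlaps Dnmt3l, as said above. Was, an actin regulator of blood cells, had 6.15 and 6.43 CPM with JQ1 and 9.91 and 7.74 CPM with DMSO in 2iL, against 0.0343 and 0 CPM with JQ1 and 0.813 and 1.29 CPM with DMSO in the knockout. The knockout JQ1 libraries together held 1 count, so no fold is given for the knockout. Slfn8, a Schlafen family protein, had 14.0 and 16.7 CPM with JQ1 and 22.1 and 26.7 CPM with DMSO in 2iL, against 0 and 0 CPM with JQ1 and 0.406 and 0.391 CPM with DMSO in the knockout. It was at 0 in both knockout JQ1 libraries, which allows up to 3 counts each, and with 8 and 7 counts in the knockout DMSO libraries its difference cannot be sized. Its call was lost without knockout DMSO replicate 1, knockout JQ1 replicate 1 or knockout JQ1 replicate 2 (adjusted p between 0.056 and 0.0816). Cd74, the invariant chain of MHC class II, had 0.342 and 0.216 CPM with JQ1 and 0.597 and 0.276 CPM with DMSO in 2iL, against 0.584 and 0.835 CPM with JQ1 and 15.8 and 19.2 CPM with DMSO in the knockout and a difference of 3.98 ± 0.65 (adjusted p = 0.00445), a call lost without 2iL JQ1 replicate 1 (3.63, adjusted p = 0.0532).

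Sox21, a SoxB factor of neural progenitors (ENSMUSG00000061517.8, chromosome 14, 118233232 to 118237030, minus strand), was among the 17 lower genes that rose on both sides. It had 92.4 and 78.3 CPM with JQ1 and 36.0 and 46.2 CPM with DMSO in 2iL, against 30.5 and 27.3 CPM with JQ1 and 1.47 and 1.73 CPM with DMSO in the knockout. In the knockout it was near its lowest with DMSO and rose with JQ1 by 4.17 ± 0.24 (adjusted p = 3.71e-07), and in 2iL it rose by 1.05 ± 0.17 (adjusted p = 0.000829). The difference was -3.12 ± 0.30 (adjusted p = 0.000264). Apom, a carrier of sphingosine-1-phosphate, had 0.683 and 0.302 CPM with JQ1 and 8.26 and 3.78 CPM with DMSO in 2iL, against 0.618 and 1.06 CPM with JQ1 and 0.406 and 0.559 CPM with DMSO in the knockout, with a difference of -4.40 ± 0.78 (adjusted p = 0.007). Serpinf1, the secreted factor PEDF, had 0.228 and 0.172 CPM with JQ1 and 5.19 and 4.97 CPM with DMSO in 2iL, against 2.82 and 2.67 CPM with JQ1 and 6.10 and 9.17 CPM with DMSO in the knockout, with a difference of -3.19 ± 0.49 (adjusted p = 0.00324). Both fell in 2iL, by 3.65 for Apom and 4.65 for Serpinf1 on the log2 scale. In the knockout the response of Apom was 0.75 ± 0.59 (adjusted p = 0.341) and that of Serpinf1 -1.47 ± 0.25 (adjusted p = 0.000908). Trim47, a ubiquitin ligase, was lower at -3.39 ± 0.67 (adjusted p = 0.0113), a call lost without 2iL JQ1 replicate 1 or knockout DMSO replicate 1 (adjusted p between 0.0524 and 0.0532). Smyd1, a methyltransferase of muscle, was lower at -3.08 ± 0.74 (adjusted p = 0.0242), a call lost without any 1 library other than 2iL DMSO replicate 2, 2iL JQ1 replicate 1 or knockout DMSO replicate 2 (adjusted p between 0.066 and 0.101). Pcdhgc4, at -2.94 ± 0.47 (adjusted p = 0.00415), shares its last exons with the other gamma protocadherins, so its counts are uncertain.

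Signalling genes differed one by one. Bmp4, a ligand of the BMP pathway that supports self-renewal in serum (ENSMUSG00000021835.14, chromosome 14, 46383520 to 46390669, minus strand), had 10.4 and 12.6 CPM with JQ1 and 2.71 and 2.53 CPM with DMSO in 2iL, against 155 and 168 CPM with JQ1 and 173 and 185 CPM with DMSO in the knockout. It was low in 2iL, where JQ1 libraries lay well above DMSO libraries, and high in the knockout, where the response did not pass (-0.15 ± 0.13, adjusted p = 0.384). The response in 2iL was 2.14 ± 0.18 (adjusted p = 7.73e-06) and the difference 2.29 ± 0.22 (adjusted p = 0.000279). Of 10 BMP genes 1 was higher and 2 lower, in both fits, beside 6.69% higher and 5.4% lower over all genes tested. Id1 and Id3, targets of BMP signalling, did not pass, at 0.50 ± 0.40 (adjusted p = 0.415) and -0.24 ± 0.28 (adjusted p = 0.599). Smad6, an inhibitor, fell on both sides, with responses of -1.39 and -1.20. Smad9 was lower (adjusted p = 0.0469) with 1 and 2 counts in the 2iL JQ1 libraries, so no fold is given, and lost its call without any 1 of the 8 libraries (adjusted p between 0.0536 and 0.405). Smad1, at -0.74 ± 0.17 (adjusted p = 0.0208), lost its call without any 1 library other than 2iL DMSO replicate 2 or 2iL JQ1 replicate 2 (adjusted p between 0.055 and 0.0819).

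In the Nodal pathway 1 of 16 genes was higher, beside 6.69% over all genes tested. Pcsk6, a convertase that activates the Nodal precursor, had 172 and 136 CPM with JQ1 and 142 and 126 CPM with DMSO in 2iL, against 44.5 and 48.8 CPM with JQ1 and 114 and 113 CPM with DMSO in the knockout, with a fall in the knockout alone (-1.28 ± 0.14, adjusted p = 3.05e-05) and a difference of 1.48 ± 0.19 (adjusted p = 0.0012). Nodal fell on both sides, with responses of -0.81 ± 0.16 (adjusted p = 0.00291) and -1.55 ± 0.18 (adjusted p = 5.03e-05), and its difference did not pass (0.73 ± 0.24, adjusted p = 0.0611). The same held for the transcription factor Foxh1, with -0.89 and -1.16, and for the Nodal inhibitor Lefty1, with -6.85 and -6.22, which held 3 to 10 counts in each JQ1 library. The length offset gave 3 higher and 1 lower, beside 4.69% and 4.79% over all genes tested. In the LIF pathway Stat3, its main transcription factor, had 94.6 and 84.6 CPM with JQ1 and 83.5 and 79.3 CPM with DMSO in 2iL, against 34.4 and 36.3 CPM with JQ1 and 61.6 and 69.2 CPM with DMSO in the knockout. It fell in the knockout (-0.89 ± 0.11, adjusted p = 9.86e-05) and not past the threshold in 2iL (0.14 ± 0.11, adjusted p = 0.369), with a difference of 1.03 ± 0.15 (adjusted p = 0.00283). Socs3, a target and feedback inhibitor of Stat3, rose on both sides, by 0.48 and 0.76. Junb was higher at 1.32 ± 0.31 (adjusted p = 0.0211) and Pim1 at 0.55 ± 0.15 (adjusted p = 0.0384), calls lost without any 1 library other than 2iL DMSO replicate 2 or knockout DMSO replicate 1 (adjusted p between 0.0518 and 0.0801) for Junb and without any 1 library other than 2iL DMSO replicate 2 (adjusted p between 0.0597 and 0.151) for Pim1. The list had 3 of 9 higher, beside 6.69% over all genes tested, with a median of 0.51 that was 0.0021 with the length offset. It had 5 higher without 2iL DMSO replicate 2, 2 without knockout DMSO replicate 1 and 1 without each of the others.

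Beta-catenin and its Wnt targets lie downstream of GSK3, and differences passed among them about as often as among all genes tested, for 2 of 15 genes of the machinery and 1 of 14 targets, against 12.1%. Ctnnb1, which encodes beta-catenin, had 939.6 and 897 CPM with JQ1 and 673 and 643 CPM with DMSO in 2iL, against 849 and 836 CPM with JQ1 and 579 and 561 CPM with DMSO in the knockout. It rose on both sides, by 0.48 in 2iL and 0.56 in the knockout, with no overlap between JQ1 and DMSO libraries, and the difference was -0.08 ± 0.13 (adjusted p = 0.702). Axin2, a direct target, had a difference of 0.61 ± 0.36 (adjusted p = 0.27). T (brachyury) fell on both sides, with responses of -2.17 in 2iL and -2.05 in the knockout, and so did Ccnd1, the cyclin D1 gene, with -1.50 and -1.60. Of 14 targets 0 were higher and 1 lower, Tcf7 (-0.74 ± 0.14, adjusted p = 0.0106), which lost its call without knockout DMSO replicate 1 or knockout JQ1 replicate 1 (adjusted p between 0.0502 and 0.0624). Without 2iL DMSO replicate 2 1 target was higher and 3 were lower. Of 15 genes of the beta-catenin machinery 2 were higher, Apc (1.44 ± 0.30, adjusted p = 0.0144), a scaffold of the destruction complex, and Cdh1 (0.85 ± 0.19, adjusted p = 0.0164), E-cadherin. Apc lost its call without 2iL JQ1 replicate 1, knockout DMSO replicate 1, knockout JQ1 replicate 1 or knockout JQ1 replicate 2 (adjusted p between 0.0502 and 0.0761), and Cdh1 without any 1 library other than 2iL DMSO replicate 2 or knockout DMSO replicate 2 (adjusted p between 0.0503 and 0.0839).

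Among 15 targets of MEK-ERK signalling, which the inhibitor PD0325901 blocks in 2iL only, 2 were higher, Spry2 (above) and Spred1. The share higher over all genes tested was 6.69%. Spred1, another inhibitor of the pathway, had a difference of 0.68 ± 0.15 (adjusted p = 0.0161), lost with the length offset (0.36 ± 0.12, adjusted p = 0.072) and without any 1 library other than 2iL DMSO replicate 2 or knockout DMSO replicate 2 (adjusted p between 0.0568 and 0.0761). Spry4 had 1.20 and 0.517 CPM with JQ1 and 0.367 and 0.829 CPM with DMSO in 2iL, against 145 and 156 CPM with JQ1 and 247 and 228 CPM with DMSO in the knockout. Its level in 2iL was at most 1.20 CPM, and the difference did not pass (1.10 ± 0.46, adjusted p = 0.123). Dusp6, a phosphatase of ERK, had 6.38 and 8.71 CPM with JQ1 and 6.52 and 11.7 CPM with DMSO in 2iL, against 56.2 and 71.0 CPM with JQ1 and 60.9 and 59.2 CPM with DMSO in the knockout, lower in every 2iL library than in any knockout library, with a difference of -0.34 ± 0.37 (adjusted p = 0.566). The median of the list was 0.36.

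Of 20 BET genes and regulators of elongation 6 were higher and 1 lower, with a median of 0.28, beside 6.69% higher and 5.4% lower over all genes tested. Aff4, a scaffold of the super elongation complex (ENSMUSG00000049470.13, chromosome 11, 53350833 to 53421830, plus strand), had 347 and 321 CPM with JQ1 and 137 and 186 CPM with DMSO in 2iL, against 179 and 184 CPM with JQ1 and 254 and 209.9 CPM with DMSO in the knockout. It rose in 2iL (1.05 ± 0.15, adjusted p = 0.0004), where the groups did not overlap, and did not pass in the knockout (-0.35 ± 0.15, adjusted p = 0.0925), and the difference was 1.40 ± 0.22 (adjusted p = 0.00331). Brd2, a target of JQ1, rose on both sides. It had 528 and 549.6 CPM with JQ1 and 259 and 279 CPM with DMSO in 2iL, against 362 and 364 CPM with JQ1 and 281 and 277 CPM with DMSO in the knockout, with responses of 1.00 ± 0.10 in 2iL and 0.38 ± 0.10 in the knockout and a difference of 0.62 ± 0.14 (adjusted p = 0.019), lost without any 1 library other than 2iL DMSO replicate 2 or knockout DMSO replicate 2 (adjusted p between 0.071 and 0.0881). Brd3, another BET gene, had a difference of -0.47 ± 0.17 (adjusted p = 0.0839). Hexim1, an inhibitor of P-TEFb that rises with BET inhibition in many cells, rose by 0.29 in 2iL and 0.58 in the knockout, with a difference of -0.29 ± 0.14 (adjusted p = 0.181). Larp7, a part of the same inhibitory particle, was the 1 gene lower, at -1.03 ± 0.22 (adjusted p = 0.0141), lost without 2iL JQ1 replicate 1, 2iL JQ1 replicate 2, knockout DMSO replicate 1 or knockout JQ1 replicate 2 (adjusted p between 0.0509 and 0.0764). The other higher genes were Aff1 (1.32), Med12 (0.97), Ell2 (0.77) and Med1 (0.71), each lost without 5 or more of the 8 libraries. Of the 7 genes of the list that passed, 5 also passed with the length offset, and Aff1 did not (0.80, adjusted p = 0.0617). The list is of long transcripts, with a median of 5112 bases, and with the length offset 4 were higher and 2 lower. In the bin of transcripts from 4543 to 5361 bases, 112 of 1120 genes were higher and 36 lower. With 2iL DMSO replicate 2 left out 9 were higher and with knockout DMSO replicate 2 left out 5, with knockout JQ1 replicate 1 or 2 left out 2, and with each of the other 4 left out 1.

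Myc, whose loss is a hallmark of BET inhibition in tumour cells, had 4.95 and 4.57 CPM with JQ1 and 6.33 and 6.82 CPM with DMSO in 2iL, against 55.5 and 71.1 CPM with JQ1 and 79.4 and 88.0 CPM with DMSO in the knockout. It was lower in every 2iL library than in any knockout library. Its responses were -0.47 ± 0.18 (adjusted p = 0.0665) and -0.41 ± 0.14 (adjusted p = 0.0378), and the difference was -0.06 ± 0.22 (adjusted p = 0.887). Of 10 genes of the Myc network 2 were higher, the repressors Mnt (0.85 ± 0.17, adjusted p = 0.0124), lost without 2iL JQ1 replicate 1 or knockout JQ1 replicate 2 (adjusted p between 0.0568 and 0.0609), and Mga (1.48 ± 0.33, adjusted p = 0.018), lost without any 1 library other than 2iL DMSO replicate 1, 2iL DMSO replicate 2 or knockout DMSO replicate 2 (adjusted p between 0.0562 and 0.0901). Among all genes tested 6.69% were higher, the share to set beside the 2 of 10. Of 6 linker histone genes tested 0 passed, and 4 rose in 2iL and 3 in the knockout, beside 11.2% and 14.6% over all genes tested. Hist1h1c rose by 2.55 in 2iL and 2.25 in the knockout.

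Lysosomal genes were higher in 5 of 16 cases and lower in 0, with a median of 0.34, beside 6.69% higher and 5.4% lower over all genes tested. The length offset gave 7 higher and 0 lower, beside 4.69% and 4.79%. Tfeb, the master regulator of lysosomal genes (ENSMUSG00000023990.18, chromosome 17, 47737030 to 47792419, plus strand), had 28.1 and 23.7 CPM with JQ1 and 40.0 and 30.0 CPM with DMSO in 2iL, against 6.90 and 4.96 CPM with JQ1 and 29.9 and 29.9 CPM with DMSO in the knockout. It fell in the knockout to a small part of its DMSO level (-2.31 ± 0.19, adjusted p = 5.09e-06), where the groups did not overlap, and did not pass in 2iL (-0.44 ± 0.17, adjusted p = 0.0754). The difference was 1.88 ± 0.25 (adjusted p = 0.00157). Npc1, the lysosomal cholesterol exporter, was higher at 1.09 ± 0.24 (adjusted p = 0.0179), lost without any 1 library other than 2iL DMSO replicate 2, knockout DMSO replicate 2 or knockout JQ1 replicate 1 (adjusted p between 0.0579 and 0.0911). Lamp1, a lysosomal membrane protein, was higher at 0.71 ± 0.14 (adjusted p = 0.0111), lost without 2iL JQ1 replicate 1, knockout DMSO replicate 1 or knockout JQ1 replicate 2 (adjusted p between 0.0527 and 0.0654). Ctsa, a lysosomal hydrolase, was higher too (0.65), lost without any 1 of the 8 libraries. The count was 4 without 2iL DMSO replicate 2 or knockout DMSO replicate 2, 3 without 2iL JQ1 replicate 2 or knockout JQ1 replicate 1, 2 without 2iL DMSO replicate 1 and 1 without the other 3.

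In cholesterol synthesis 3 of 19 genes were higher, beside 6.69% over all genes tested. Srebf2, the factor that switches on the pathway, had 429.9 and 412 CPM with JQ1 and 328 and 361 CPM with DMSO in 2iL, against 210.5 and 185 CPM with JQ1 and 318 and 281 CPM with DMSO in the knockout, with a fall in the knockout (-0.60 ± 0.11, adjusted p = 0.00171) and a difference of 0.89 ± 0.16 (adjusted p = 0.00745). Sqle, squalene epoxidase, was higher at 0.50 ± 0.14 (adjusted p = 0.0383), lost without any 1 of the 8 libraries (adjusted p between 0.0588 and 0.147) and with the length offset (0.38 ± 0.12, adjusted p = 0.0551). Without 2iL DMSO replicate 2 2 genes were higher and 1 lower, and without any other 1 of the 8 libraries 1 was higher and 0 were lower. In the amino acid response 2 of 15 were lower, beside 5.4% over all genes tested. Phgdh, the first enzyme of serine synthesis, had 42.2 and 49.8 CPM with JQ1 and 118 and 99.0 CPM with DMSO in 2iL, against 142 and 159.8 CPM with JQ1 and 156 and 171 CPM with DMSO in the knockout, with a fall in 2iL (-1.24 ± 0.14, adjusted p = 5.92e-05) and a difference of -1.12 ± 0.19 (adjusted p = 0.00591). Asns, asparagine synthetase, rose on both sides, by 0.33 and 0.92, and was lower at -0.59 ± 0.14 (adjusted p = 0.0195), lost without any 1 library other than 2iL DMSO replicate 2 (adjusted p between 0.0536 and 0.0862). Atf4, the factor that drives this response, had a difference of -0.17 ± 0.16 (adjusted p = 0.498).

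Of 19 cell cycle genes 4 were lower and 0 higher, with a median of -0.22. Among all genes tested 5.4% were lower and 6.69% higher, the shares to set beside each list of this paragraph. Ccnb2, a mitotic cyclin, had 79.7 and 78.7 CPM with JQ1 and 122 and 104 CPM with DMSO in 2iL, against 94.6 and 95.9 CPM with JQ1 and 70.8 and 70.9 CPM with DMSO in the knockout. It fell in 2iL and rose in the knockout, and the difference was -0.94 ± 0.18 (adjusted p = 0.00929). Aurkb, a mitotic kinase, was lower at -0.81 ± 0.15 (adjusted p = 0.00934), lost without knockout DMSO replicate 1 (-0.75, adjusted p = 0.0578), Cdk1, the mitotic kinase that cyclin B activates, at -0.73 ± 0.20 (adjusted p = 0.0373), lost without any 1 library other than 2iL DMSO replicate 2 or knockout DMSO replicate 2 (adjusted p between 0.0898 and 0.161), and Aurka at -0.58 ± 0.17 (adjusted p = 0.0447), lost without any 1 library other than 2iL DMSO replicate 2 (adjusted p between 0.0869 and 0.151). The lower count was 6 without 2iL DMSO replicate 2, 3 without knockout DMSO replicate 2, 1 without knockout DMSO replicate 1 and 2 without each of the others. Replication genes did not pass, with Mcm2 at -0.06 ± 0.12 (adjusted p = 0.8). Of 13 p53 targets, Trp53 included, 3 were lower, Pmaip1 (above), Bax (-0.77 ± 0.22, adjusted p = 0.0401), lost without any 1 library other than 2iL DMSO replicate 2 (adjusted p between 0.0679 and 0.149) and with the length offset (-0.38 ± 0.14, adjusted p = 0.106), and Trp53 itself (-0.54 ± 0.16, adjusted p = 0.0457), lost without any 1 library other than 2iL DMSO replicate 2 (adjusted p between 0.0781 and 0.172). Without 2iL DMSO replicate 2 5 targets were lower. Cdkn1a, the inhibitor p21, had a difference of 0.16 ± 0.29 (adjusted p = 0.755). Of 15 ribosome biogenesis genes 2 were higher, Polr1b (0.55 ± 0.13, adjusted p = 0.0259), lost without any 1 library other than 2iL DMSO replicate 2 (adjusted p between 0.0573 and 0.127), and Polr1a (0.57 ± 0.16, adjusted p = 0.0401), lost without any 1 library other than 2iL DMSO replicate 2 (adjusted p between 0.0684 and 0.162). Polr1a changed sign with the length offset (-0.01 ± 0.11, adjusted p = 0.993), and without 2iL DMSO replicate 2 3 genes of the list were higher and 1 lower.

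Germline genes fell together on both sides. Of 15 genes 11 fell and 1 rose in 2iL, against 9 that fell and 1 that rose in the knockout, with median responses of -1.71 and -1.83. Over all genes tested 17.3% fell in 2iL and 19.5% in the knockout. Only 1 difference passed, that of Sycp1, a protein of the synaptonemal complex (2.06 ± 0.39, adjusted p = 0.00953), lost without knockout DMSO replicate 1 (1.76, adjusted p = 0.0555). Sycp3, another such protein, had 1.20 and 1.21 CPM with JQ1 and 16.8 and 14.6 CPM with DMSO in 2iL, against 1.17 and 1.56 CPM with JQ1 and 8.23 and 7.38 CPM with DMSO in the knockout. Every JQ1 library was far below every DMSO library of its side. The responses were -3.70 ± 0.40 (adjusted p = 4.34e-05) in 2iL and -2.54 ± 0.39 (adjusted p = 0.000467) in the knockout, and the difference was -1.16 ± 0.57 (adjusted p = 0.19). Mael, of the piRNA pathway, had responses of -2.06 ± 0.37 and -1.86 ± 0.34, and Sohlh2, a factor of germ cells, of -2.57 ± 0.21 and -2.29 ± 0.39. Dazl, an RNA-binding protein of germ cells, was the 1 gene that rose on both sides, by 0.63 and 0.80. Stra8, which starts meiosis, was at 0 in both knockout JQ1 libraries, against 0.61 and 0.503 CPM with DMSO.

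The promoters of Sycp3 and Mael are shown because both genes fell on both sides, with the E-box CACGTG, which Myc/Max and Mga/Max complexes recognize, in capitals. This motif was found in 10 of 16 windows of germline genes (62.5%, 14 of 15 genes matched), in 2 of 29 windows of glycolytic genes (6.9%) and in 7.15% of all windows. Every CACGTG also holds ACGTG, which was found in 14 of the 16 germline windows (87.5%).
Sycp3 (chr10:88459337-88459636, plus strand): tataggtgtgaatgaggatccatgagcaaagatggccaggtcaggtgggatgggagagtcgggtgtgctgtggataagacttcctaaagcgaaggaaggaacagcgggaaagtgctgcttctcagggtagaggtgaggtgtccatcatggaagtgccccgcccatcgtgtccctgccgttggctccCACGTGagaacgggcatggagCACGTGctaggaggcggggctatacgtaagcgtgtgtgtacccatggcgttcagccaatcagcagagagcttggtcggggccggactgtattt
Mael (chr1:166238695-166238994, minus strand): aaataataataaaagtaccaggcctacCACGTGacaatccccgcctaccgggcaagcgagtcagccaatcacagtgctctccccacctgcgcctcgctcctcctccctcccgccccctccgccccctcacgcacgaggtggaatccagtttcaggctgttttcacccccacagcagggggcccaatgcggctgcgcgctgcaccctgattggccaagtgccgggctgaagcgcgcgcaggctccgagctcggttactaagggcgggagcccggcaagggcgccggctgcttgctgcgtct
The window of Sycp3 holds 2 E-boxes and that of Mael 1.

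Genes of the two-cell-like state, a rare state of ES cells, were low throughout. Of 8 genes 5 were tested, 5 fell in 2iL and 0 passed in the knockout or in the difference. The share that fell in 2iL over all genes tested was 17.3%. Zscan4c had 0 and 0.216 CPM with JQ1 and 18.5 and 4.93 CPM with DMSO in 2iL, against 0 and 0 CPM with JQ1 and 0.254 and 0.615 CPM with DMSO in the knockout. The level in the knockout was already under 1 CPM with DMSO, and with JQ1 it was 0 in both libraries, so the responses cannot be compared in size. The Zscan4 genes are near-identical copies, and counts may be split between them. Of 16 imprinted genes 4 were higher and 0 lower, beside 6.69% and 5.4% over all genes tested. Their median was 0.53, and 0.22 with the length offset. Igf2r, the receptor that clears IGF2, had 271 and 237 CPM with JQ1 and 112 and 149 CPM with DMSO in 2iL, against 169.9 and 156 CPM with JQ1 and 261 and 208 CPM with DMSO in the knockout, and a difference of 1.48 ± 0.26 (adjusted p = 0.00608). Phlda2, which restrains placental growth, had 4.33 and 5.17 CPM with JQ1 and 7.20 and 11.1 CPM with DMSO in 2iL, against 0.824 and 1.45 CPM with JQ1 and 10.9 and 14.0 CPM with DMSO in the knockout, and a difference of 2.59 ± 0.38 (adjusted p = 0.00243). Phlda2 fell on both sides, and fell further in the knockout. Peg10, a gene derived from a retrotransposon, had 23.3 and 28.3 CPM with JQ1 and 5.23 and 4.15 CPM with DMSO in 2iL, against 2645 and 2271 CPM with JQ1 and 2149 and 1578 CPM with DMSO in the knockout. All 4 knockout libraries lay far above the 2iL libraries. Peg10 rose in 2iL (2.46 ± 0.34, adjusted p = 0.000275) and was higher at 2.06 ± 0.44 (adjusted p = 0.0151), lost without 2iL JQ1 replicate 2, knockout DMSO replicate 1 or knockout JQ1 replicate 2 (adjusted p between 0.0572 and 0.0688). Grb10 was higher at 0.80 ± 0.20 (adjusted p = 0.0289), lost without any 1 library other than 2iL DMSO replicate 2 or knockout JQ1 replicate 1 (adjusted p between 0.0659 and 0.116). The count was 4 without 2iL DMSO replicate 2 or knockout JQ1 replicate 1, 3 without 2iL DMSO replicate 1, 2iL JQ1 replicate 1 or knockout DMSO replicate 2, and 2 without the other 3.

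The counts of lineage genes that passed were close to the 12.1% over all genes tested. Eomes, a T-box factor of mesendoderm and trophoblast (ENSMUSG00000032446.14, chromosome 9, 118478212 to 118486132, plus strand), had 20.3 and 13.9 CPM with JQ1 and 14.0 and 9.03 CPM with DMSO in 2iL, against 19.8 and 20.5 CPM with JQ1 and 58.2 and 63.5 CPM with DMSO in the knockout. It fell in the knockout (-1.59 ± 0.19, adjusted p = 8.06e-05) and did not pass in 2iL (0.56 ± 0.20, adjusted p = 0.056), with a difference of 2.15 ± 0.28 (adjusted p = 0.0013). It was the 1 gene that passed of 8 mesendoderm genes tested. Of 7 neural genes tested Sox21 passed, and of 8 trophoblast genes 0 did. Of 14 primitive endoderm genes 2 were higher, Amn (3.30 ± 0.74, adjusted p = 0.0176), which held at most 7 counts in each 2iL library, and Lama1 (1.19 ± 0.31, adjusted p = 0.0312), lost without any 1 library other than 2iL DMSO replicate 2, knockout DMSO replicate 2 or knockout JQ1 replicate 1 (adjusted p between 0.0585 and 0.0742) for Amn and without any 1 library other than 2iL DMSO replicate 2 or knockout DMSO replicate 2 (adjusted p between 0.0657 and 0.139) for Lama1. Lama1 was also lost with the length offset. The 6 primitive endoderm markers summed to 1.96 and 2.33 CPM with JQ1 and 5.80 and 3.62 CPM with DMSO in 2iL, against 58.7 and 41.8 CPM with JQ1 and 93.4 and 65.9 CPM with DMSO in the knockout, and their part in these differences was not tested. Of 12 interferon and antigen presentation genes tested, Ddx58, the RNA sensor RIG-I, was higher. It had 9.17 and 8.02 CPM with JQ1 and 8.35 and 11.9 CPM with DMSO in 2iL, against 19.9 and 21.7 CPM with JQ1 and 73.1 and 79.1 CPM with DMSO in the knockout, fell in the knockout (-1.87 ± 0.15, adjusted p = 4.83e-06) and had a difference of 1.63 ± 0.22 (adjusted p = 0.00165). Tap1, a peptide transporter, was lower at -1.94 ± 0.38 (adjusted p = 0.0109), lost without knockout JQ1 replicate 1 (-1.73, adjusted p = 0.051).

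Of 11 fibroblast genes tested 8 fell in the knockout and 4 in 2iL, and of 6 contractile genes 3 fell in the knockout and 0 in 2iL. The share that fell over all genes tested was 19.5% in the knockout and 17.3% in 2iL. Col1a1, the main fibrillar collagen, had 0.171 and 0 CPM with JQ1 and 0.872 and 0.599 CPM with DMSO in 2iL, against 121 and 90.7 CPM with JQ1 and 139 and 239 CPM with DMSO in the knockout and a difference that did not pass (adjusted p = 0.145). The only difference that passed was that of Thy1 (adjusted p = 0.0463), which was lost without any 1 library other than 2iL DMSO replicate 2 (adjusted p between 0.0591 and 0.213) and with the length offset (adjusted p = 0.0789). Thy1 had 0.0569 and 0 CPM with JQ1 and 1.15 and 0.645 CPM with DMSO in 2iL, against 4.36 and 2.67 CPM with JQ1 and 11.3 and 9.78 CPM with DMSO in the knockout, so that its 2iL JQ1 libraries held at most 1 count and no fold is given. The 6 contractile markers summed to 1.12 and 1.24 CPM with JQ1 and 3.38 and 1.57 CPM with DMSO in 2iL, against 90.1 and 69.0 CPM with JQ1 and 119 and 163 CPM with DMSO in the knockout.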

How the data were processed

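RNA of 12 libraries was sequenced, 2 in each of 6 groups, and the 8 libraries of the 2iL and knockout groups carry the comparison. The authors deposited expected counts per gene, which per the submitters' processing notes came from bcl2fastq, STAR 2.5.2 and RSEM on mm10, with DESeq2 1.18.1 also named. Strand setting and annotation are not given in the sources used here. Of 52550 gene IDs, 52403 (99.72%) matched GENCODE M21 without their version. Expected counts (6.1% to 8.7% of all listed values, zeros included, were not whole) were rounded to whole numbers. Genes were kept with edgeR's filterByExpr (minimum count 10, total 15), scaled by TMM and fitted with edgeR 4.0.16 (glmQLFit, glmQLFTest) in R 4.3.3 over all 12 libraries, with 1 mean per group and 6 residual degrees of freedom. P-values were adjusted over all 16987 genes by Benjamini-Hochberg.

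Alternatives were DESeq2 1.42.0, limma-voom (3.58.1) with sample weights, other filters and scaling, the 8 libraries alone, a replicate block, each library left out, and a transcript length offset (a smooth of each library's deviation on log2 length, span 0.3), chosen after the data were seen.

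Members, gene lists and markers were chosen with earlier results of these data known. The text names protein-coding genes with a symbol and a mean of at least 5 CPM in 1 of the 4 groups: the 8 highest and 8 lowest differences that passed, the 8 lowest p-values of each kind of opposite response, and members of lists and markers. Smad9, under that level, was named after its values were seen. A few list members enter the counts and are not reported here by name. Samples were grouped by their labels. No library is shared between the sides, and replicate numbers pair nothing in the labels.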

Additional observations from a re-analysis of the deposited data

Results flagged for a closer look

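The JQ1 response differed between 2iL and the GSK3 knockout for 2055 genes by the test of the difference itself, which is what brings them here. The 16 genes chosen for opposite responses are here for the same reason. The log2 difference was 3.42 for Nt5e, 3.03 for Tet2, 2.66 for Sfmbt2, 1.97 for Slc16a3, 1.88 for Fzd5, 1.55 for Spry2, 1.43 for Cldn4 and 1.31 for Sec14l1. It was -3.08 for Pmaip1, -2.73 for Rtn1, -2.38 for Ism2, -2.18 for Sox4, -2.17 for Mobp, -1.80 for Efna2, -1.52 for Sdc4 and -1.40 for Smyd2. All 16 passed with the length offset too. They were picked for low p-values in these same libraries, so this is no independent support. Of all 2055 genes 1222, or 59.5%, passed in both fits with the same sign. With 2 libraries in a group no single library could be tested for standing apart.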

How the results depend on the processing

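Of 2055 genes whose difference passed, the count was 3153 (1505 higher, 1648 lower) with no filter on low counts, 3170 (1560 higher, 1610 lower) with only the 8 libraries in the fit, 3275 with limma-voom and sample weights, and 1047 with a log2 difference of at least 1. It ran from 311 to 3120 with 1 library left out, lowest without knockout DMSO replicate 1 and highest without 2iL DMSO replicate 2. Under DESeq2 it was 2597, under RLE scaling 1997, with 1 CPM in 4 libraries 2175, with 5 CPM in both DMSO groups 1985, without mitochondrially encoded genes 2055 and with the length offset 1610. For JQ1 in 2iL the count of 4834 was 2745 with 5 CPM in both DMSO groups, 2389 with a log2 response of at least 1, and 2651 to 4649 with 1 library left out. For JQ1 in the knockout the count of 5799 was 3713 with 5 CPM in both DMSO groups, 2475 with a log2 response of at least 1, and 3215 to 6341 with 1 library left out. The causes of these shifts were not tested. With the replicate number as a block 2492 genes passed, and 5147 and 6222 on the 2iL and knockout sides. The correlation of same-numbered libraries' deviations was 0.118 between JQ1 and DMSO within 2iL, 0.117 within the knockout and 0.185 within the other ES cells in serum/LIF, and between -0.186 and 0.177 over the other 12 pairs of groups, and the labels do not pair them. Of 453 named genes 108 passed, and 107 of these kept their sign in every alternative run. Polr1a turned to -0.0083 (adjusted p = 0.993) with the length offset. Its other alternatives kept a positive sign. With 2 libraries a group, small differences in genes of few counts are beyond these data.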
